A study of Mus musculus with 24 samples.

Results

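Cacna2d2, Gas1, Dab2ip, Dsg2, Ptpn13, Pkia and Hmcn1 are 7 autosomal genes that were expressed in the sgNTC line of ID8 p53-/- cells and nearly without reads in the Ifngr1-KO line. They were chosen by their measured levels: a group mean under 0.3 CPM in all 4 Ifngr1-KO groups and of at least 5 CPM in all 4 sgNTC groups, where CPM is a count scaled to the size of its library, with TMM factors. Of 29142 autosomal genes in the files, 8 met those thresholds, the 7 described here and Soga3. They lie on 7 different chromosomes. The difference between the lines in these genes is therefore a property of the selection, and it is given as a description with no test.

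ID8 is a mouse ovarian surface epithelial cancer line, and all cells here are also p53-/-. One line was edited at Ifngr1, which encodes a subunit of the interferon gamma receptor, and the other carries sgNTC, a non-targeting guide. Each genotype is represented by 1 line, so genotype and line cannot be told apart, and the labels do not say whether either is a single clone. Each line was grown either attached to regular plates (adherent) or unattached in ultra-low attachment plates (ULA), and received recombinant mouse IFN-gamma at 100 ng/ml or the PBS vehicle 24 hours after seeding, with harvest 24 hours later. That gives 8 groups of 3 libraries: Ifngr1-KO and sgNTC cells, adherent or ULA, with PBS or IFN-gamma. A step that removed dead cells was applied to the ULA wells alone, so culture and that step cannot be told apart. The labels call the 3 libraries of a group biological replicates without naming separate cultures, so p-values measure the spread between these libraries.

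The genes share no single pathway. CACNA2D2 is an auxiliary subunit of voltage-gated calcium channels, and GAS1 is a surface protein that arrests growth and serves as a Hedgehog co-receptor. DSG2 is a cadherin of desmosomes and hemicentin 1 (HMCN1) is a large extracellular matrix protein of the fibulin family. DAB2IP is a Ras GTPase-activating protein, PTPN13 a large cytosolic tyrosine phosphatase with PDZ domains, and PKIA an inhibitor of protein kinase A.

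The libraries held 33494774 to 63154942 counts each, and 14622 genes passed the filter on low counts. Ifngr1 itself, the edited gene, lay between 13.3 and 17 CPM in all 12 libraries of the Ifngr1-KO line and between 31.7 and 48.1 CPM in all 12 of sgNTC. Other transcripts also separated the lines: Cas9 ran from 65 to 116 CPM against 1060 to 2180 CPM, and Xist, on the X chromosome, from 0.0522 to 0.306 CPM against 189 to 400 CPM. Of 10 mesothelial and ovarian surface epithelial markers, 6 reached 1 CPM in every library, while Krt7 and Bnc1 averaged under 0.2 CPM in both lines. Upk3b and Gpm6a, of the same list, were lower in the Ifngr1-KO line in every library, at 0.105 to 0.616 against 1.26 to 8.6 CPM and at 19.9 to 39.2 against 208 to 252 CPM, and their part in the results below was not tested. Summed macrophage markers, nearly all Cd68, lay between 5.33 and 23.5 CPM in the Ifngr1-KO line and between 2.11 and 7.82 CPM in the sgNTC line. Summed endothelial markers stayed at or below 5.45 CPM and fibroblast markers at or below 99.4 CPM, nearly all from Dcn. The pan-leukocyte marker Ptprc and the lymphocyte and erythroid markers were near 0 in both lines. In bulk RNA, fewer cells with a transcript and less of it per cell cannot be told apart.

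The cell adhesion genes were Dsg2 (ENSMUSG00000044393, GRCm38, chromosome 18, positions 20558074 to 20604521, plus strand) and Hmcn1 (ENSMUSG00000066842, chromosome 1, positions 150562524 to 150993435, minus strand). Dsg2 stood at 9.37, 9.26 and 10.2 CPM in adherent sgNTC cells with PBS and at 22, 22 and 22.9 CPM in ULA sgNTC cells with PBS. All 12 Ifngr1-KO libraries together gave 10 Dsg2 counts, against 8839 in the sgNTC libraries, and 9 of the 12 had none. Hmcn1 stood at 4.86, 5.97 and 5.09 CPM in adherent sgNTC cells with PBS and at 13.4, 14.1 and 11.7 CPM in the ULA ones. In the Ifngr1-KO libraries it gave 10 counts in all, 8 of them in 1 adherent library with IFN-gamma, against 4640 in sgNTC. Hmcn1 was the gene nearest the lower sgNTC limit, with a lowest group mean of 5.31 CPM. Its mean fell below 5 CPM in 1 group when adherent sgNTC replicate 1 with IFN-gamma, or replicate 2 with PBS, was left out, which left 6 of the 7 genes within the rule.

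The surface and channel genes were Cacna2d2 (ENSMUSG00000010066, chromosome 9, positions 107399612 to 107529343, plus strand) and Gas1 (ENSMUSG00000052957, chromosome 13, positions 60174405 to 60177365, minus strand). Cacna2d2 measured 21.5, 23.6 and 21.2 CPM in adherent and 31.5, 30.2 and 26.1 CPM in ULA sgNTC cells with PBS. Its 12 Ifngr1-KO libraries held 22 counts against 13793, and 6 of them had none. Gas1 stood at 47.8, 55.4 and 50.4 CPM in ULA sgNTC cells with PBS and at 18.9, 20.6 and 17.1 CPM in the adherent ones. It gave 27 counts in Ifngr1-KO against 18951 in sgNTC, and 8 of 12 Ifngr1-KO libraries had none. One adherent Ifngr1-KO library with PBS held 11 of those counts, or 0.287 CPM, the highest CPM of any of the 7 genes in that line.

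Inside the cell act Dab2ip (ENSMUSG00000026883, chromosome 2, positions 35558266 to 35730994, plus strand), Ptpn13 (ENSMUSG00000034573, chromosome 5, positions 103425192 to 103598303, plus strand) and Pkia (ENSMUSG00000027499, chromosome 3, positions 7366669 to 7445366, plus strand). Dab2ip stood at 12.3, 14.6 and 12.6 CPM in adherent and 20.9, 20.4 and 20.6 CPM in ULA sgNTC cells with PBS. Ptpn13 stood at 6.95, 7.88 and 6.23 CPM in adherent and 21.4, 21.8 and 19.6 CPM in ULA sgNTC cells with PBS. Neither gene's adherent and ULA libraries overlapped. The 12 Ifngr1-KO libraries gave 18 Dab2ip counts against 8650 and 11 Ptpn13 counts against 7424. Pkia was the flat one, at 6.78, 7.23 and 7.61 CPM in adherent and 6.31, 6.82 and 8.17 CPM in ULA sgNTC cells, with overlapping groups. It also had the most counts left in Ifngr1-KO, 36 against 3722, spread over 8 of 12 libraries.

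**Figure D1:**
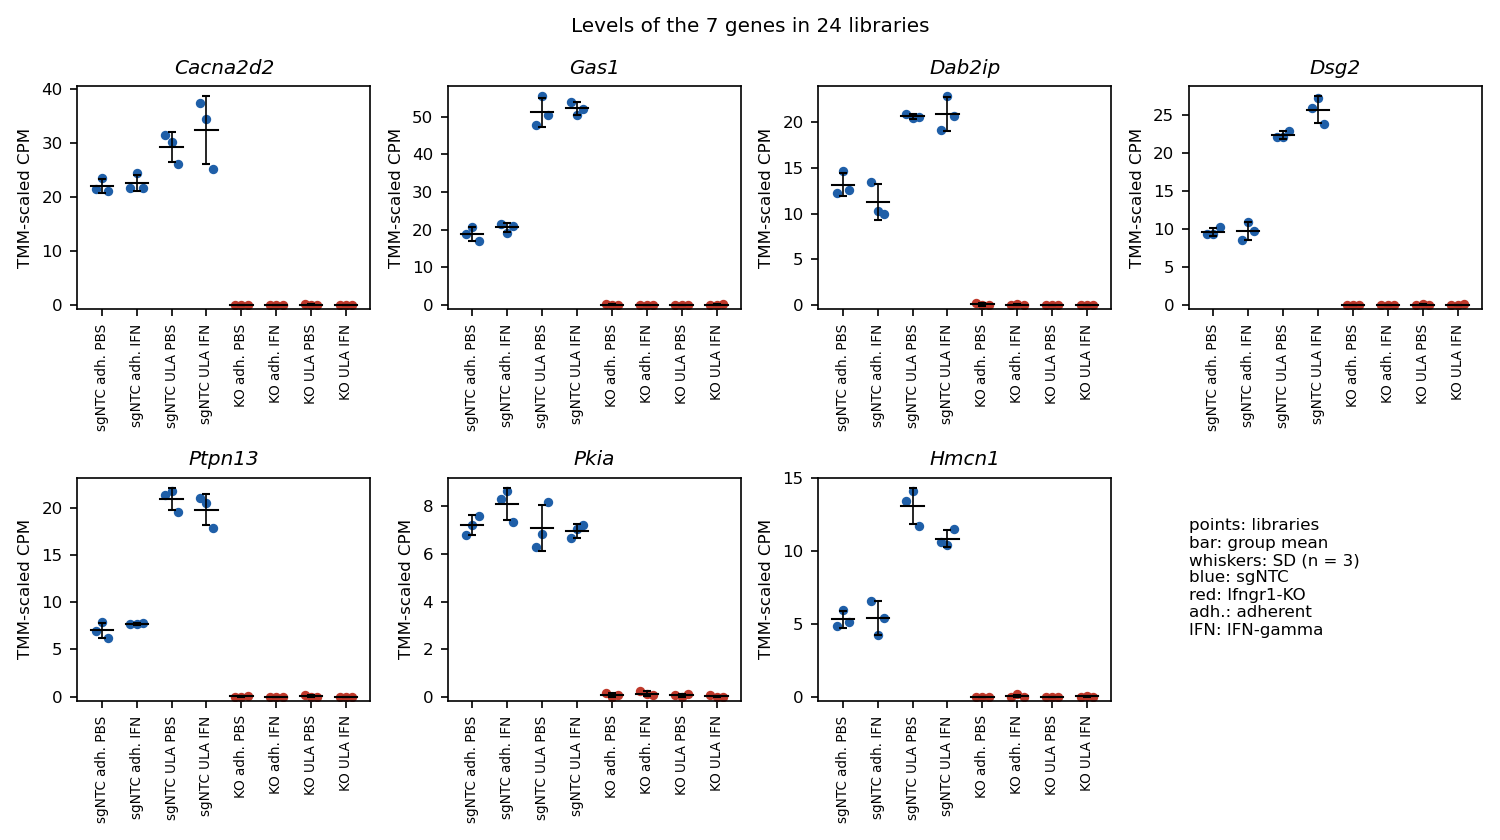
TMM-scaled CPM (vertical axes, linear and with a different range per gene) of each gene in every library of the 8 groups on the horizontal axis; points are libraries, bars group means and whiskers SD (n = 3). Every Ifngr1-KO library is at 0.287 CPM or less and every sgNTC library at 4.19 CPM or more, and in sgNTC cells Pkia alone lacks the step from adherent to ULA.

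The level left in Ifngr1-KO was a small fraction of that in sgNTC cells for each gene. As a percent of the mean sgNTC CPM over 12 libraries it was 0.116% for Dsg2, 0.147% for Gas1, 0.153% for Cacna2d2, 0.172% for Ptpn13, 0.195% for Hmcn1, 0.212% for Dab2ip and 0.903% for Pkia. The 7 genes together gave 134 counts in the Ifngr1-KO and 66019 in the sgNTC libraries. Of the 84 combinations of gene and Ifngr1-KO library, 55 had no count. All 12 Ifngr1-KO libraries held counts of at least 1 of the genes, with sums from 2 to 27. The tables count each mate of a read pair, and 27 of the 29 nonzero values were even, so most of these fragments entered the tables as a pair of counts. Where a group of 3 libraries had no count, as for Gas1 and Hmcn1 in ULA Ifngr1-KO cells with PBS, 3 counts over the group would be 0.0257 CPM. Mates of a pair are not independent, so this nominal limit is too low for fragments.

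Thresholds set the size of the set. Just outside the Ifngr1-KO limit were Slc7a2, Ahsg and Rps6ka2, with highest Ifngr1-KO group means of 0.444, 0.473 and 0.556 CPM, whereas the highest among the 7 genes were 0.129 CPM for Pkia and 0.126 CPM for Gas1. Just outside the sgNTC limit were Gm47547, Sgk3 and Fam13c, with lowest sgNTC group means of 5 (just under the limit), 4.38 and 3.58 CPM. With the roles of the lines exchanged, 0 genes met the rule, although 9019 autosomal genes reached 5 CPM in all Ifngr1-KO groups and 9056 in all sgNTC groups. On the X chromosome 2 further genes met it, Xist and Hs6st2.

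Compared per kilobase of exon, the order in adherent sgNTC cells with PBS was Gas1 at 6.37 ± 0.584 CPM per kb (SD, n = 3), Cacna2d2 at 2.78 ± 0.161, Pkia at 1.94 ± 0.111, Dab2ip at 1.57 ± 0.149, Dsg2 at 1.16 ± 0.0588, Ptpn13 at 0.58 ± 0.0685 and Hmcn1 at 0.25 ± 0.0275. No pair of neighbours in that order overlapped. In ULA cells with PBS Gas1 reached 17.3 ± 1.31 CPM per kb, Dsg2 (2.7 ± 0.0677) and Dab2ip (2.47 ± 0.032) stood above Pkia (1.91 ± 0.259), and Pkia overlapped Ptpn13 (1.73 ± 0.0983). Hmcn1 was lowest in all 4 sgNTC groups.

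The rule set no direction between cultures or treatments within the sgNTC line, so those comparisons could be tested, apart from its floor of 5 CPM. Loss of attachment went with higher levels of 6 of the 7 genes: Ptpn13, Gas1, Hmcn1, Dsg2, Dab2ip and Cacna2d2 rose in ULA against adherent cells. With PBS, edgeR's quasi-likelihood test called these 6 higher and 0 lower at a Benjamini-Hochberg adjusted p under 0.05. Among all genes tested, 32.5% were called higher and 32.1% lower, so change with culture was common. The median log2 fold change was 1.22 over the 7 genes and 0.03 over all genes tested. All 3 ULA libraries stood above all 3 adherent ones for 6 of the 7 genes, against 36% of all genes.

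Ptpn13 had a log2 fold change of 1.58 ± 0.19 (SE) with an adjusted p of 3.66e-08, a 2.98-fold higher level. Gas1 followed at 1.44 ± 0.14 (adjusted p 2.07e-09), then Hmcn1 at 1.3 ± 0.23 (1.15e-05) and Dsg2 at 1.22 ± 0.16 (5.2e-08). Dab2ip changed less, by 0.65 ± 0.2 (adjusted p 0.00674). Cacna2d2 changed least of the 6, by 0.41 ± 0.16 with an adjusted p of 0.0305 in edgeR. Its call was lost without any 1 of 4 libraries: ULA replicate 1 (adjusted p 0.1) or 2 (0.0837), or adherent replicate 1 (0.089) or 3 (0.0872). The call of Cacna2d2 was kept in the other 10 of 14 settings. Its adjusted p was 0.00128 in DESeq2. In edgeR it was 0.00217 with only the 12 sgNTC libraries and 0.000161 with only the groups compared. Pkia, the kinase inhibitor, gave -0.02 ± 0.22, with a 95% interval from -0.47 to 0.42 and an adjusted p of 0.936 in edgeR, and its sign varied between alternative settings.

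The IFN-gamma libraries are a second set of samples for the same comparison. In them Gas1 measured 21.6, 19.2 and 21.1 CPM in adherent and 54, 50.6 and 52.1 CPM in ULA cells, and Dsg2 8.6, 10.9 and 9.68 CPM against 25.9, 27.2 and 23.7 CPM. Ptpn13 measured 7.64, 7.7 and 7.79 CPM in adherent and 21, 20.5 and 17.9 CPM in ULA cells. These 3 genes separated completely by culture. The same 6 genes were called higher by edgeR, against 32.6% of all genes, with log2 fold changes from 0.51 for Cacna2d2 (adjusted p 0.00769) to 1.4 for Dsg2 (3.66e-09). Between them lay Ptpn13 at 1.36, Gas1 at 1.34, Hmcn1 at 1.01 and Dab2ip at 0.88. Without ULA replicate 1 with IFN-gamma, Cacna2d2 gave 0.4 with an adjusted p of 0.0582 and was no longer called. The 6 genes had 3 ULA libraries all above the 3 adherent ones, as did 35.5% of all genes. Pkia went the other way, with ULA libraries at 6.66, 7.07 and 7.23 CPM all below adherent ones at 8.32, 8.64 and 7.34 CPM, as for 33.5% of all genes. Its log2 fold change of -0.21 had a 95% interval from -0.66 to 0.23 and an adjusted p of 0.404 in edgeR.

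No response to IFN-gamma was detected in any of the 7 genes in sgNTC cells, the line that was not edited at Ifngr1. In adherent cells edgeR called 0 of 7 genes, against 0.315% of all genes (46), and 0 of 7 also had an unadjusted p under 0.05, against 1070 of all genes. The 7 log2 fold changes ran from -0.22 for Dab2ip to 0.17 for Pkia. In ULA cells edgeR again called 0 of 7, against 2.05% of all genes (300), and 0 of 7 had an unadjusted p under 0.05, against 1922 of all genes. The groups of 2 genes did not overlap there. Dsg2 was above its PBS libraries in all 3 IFN-gamma libraries, as were 10.2% of all genes, with a log2 fold change of 0.2 and a 95% interval from -0.11 to 0.51. Hmcn1, at 10.6, 10.4 and 11.5 CPM, was below its PBS libraries in all 3, as were 10% of all genes, with -0.26 and an interval from -0.71 to 0.18.

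For the other 5 genes in ULA cells the values ran from -0.08 for Ptpn13 to 0.14 for Cacna2d2. Over the 7 genes in both cultures the 95% intervals reached down to -0.71, for Hmcn1 in ULA cells, and up to 0.62, for Pkia in adherent cells. The difference between the responses in ULA and adherent cells was called for 0 of 7 genes by edgeR, against 0.0479% of all genes (7), and 0 of 7 had an unadjusted p under 0.05, against 781. DESeq2 also called 0 of 7 genes in each of these 3 comparisons, as did edgeR with only the 12 sgNTC libraries. The main fit estimated each gene's spread over all 24 libraries, including the 12 Ifngr1-KO ones that were nearly without reads of these genes. The p-values of the 7 genes depend on that spread, and unadjusted p were not counted in other fits.

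**Figure D2:**
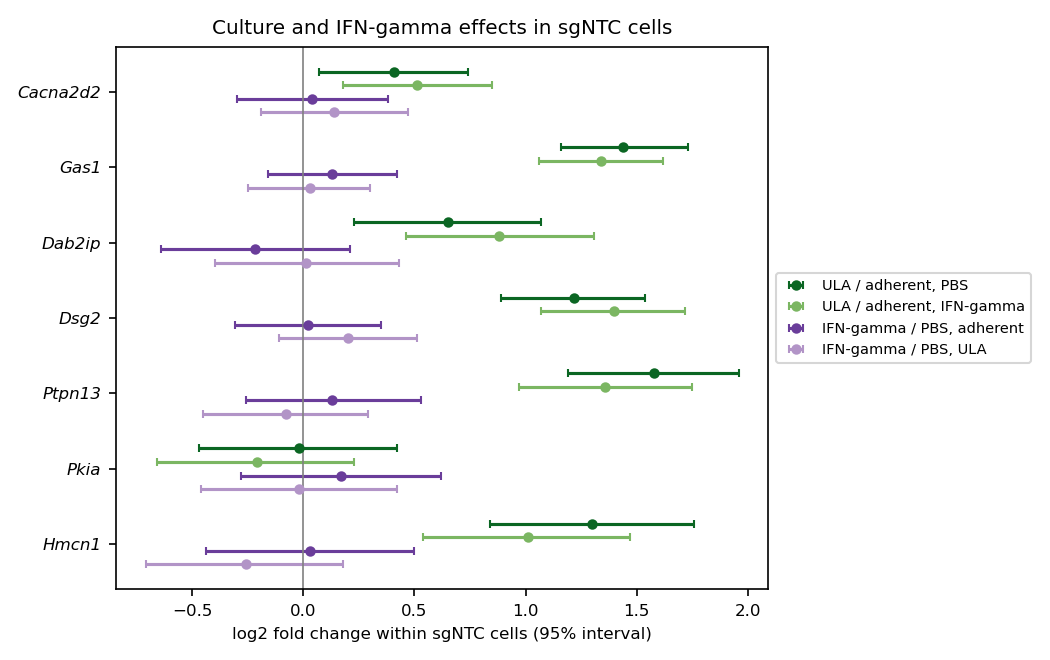
Log2 fold change (horizontal axis) with its 95% interval for each gene (vertical axis) within the sgNTC line, for ULA against adherent and for IFN-gamma against PBS, 3 libraries a group. The culture intervals of 6 genes lie above 0 in both treatments, Pkia's cross 0, and all 14 IFN-gamma intervals cross 0.

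Over the 12 sgNTC libraries the 6 genes that rose in ULA share that step, which by itself raises their correlations. Pearson's r of log2(CPM + 0.5) for their 15 pairs ran from 0.75 to 0.99, and for the 6 pairs with Pkia from -0.52 to -0.42. Inside a culture the 15 pairs took both signs, from -0.9 to 0.88 within the 6 adherent libraries and from -0.92 to 0.69 within the 6 ULA libraries. Among 9659 named genes averaging 5 CPM or more over the sgNTC libraries, the gene most like each member in this measure over 12 libraries was Slc16a1 for Gas1 (r 0.995), Prkar1a for Ptpn13 (0.997), Ccdc152 for Dsg2 (0.996), Mvp for Hmcn1 (0.988), Gpr137 for Dab2ip (0.978), Pla2r1 for Cacna2d2 (0.941) and Rab2b for Pkia (0.86). None of these was silent in the Ifngr1-KO line. Slc16a1, for instance, averaged 285 CPM there against 334 CPM in sgNTC, and Ccdc152 1.52 against 8.15 CPM. Points in these correlations share libraries and the culture step, so r is a description.

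Genes near the silent ones differed between the lines in both directions. The 42 tested protein-coding genes that lie nearest, 3 on each side of each silent gene, had a median log2 difference of -0.05 between Ifngr1-KO and sgNTC adherent cells with PBS. Of the 42, 15 were called lower and 10 higher by edgeR, against 23.9% lower and 20.1% higher among all genes tested. In ULA cells 13 were lower and 9 higher, against 25.6% and 24.5%. Within 2 Mb, centre to centre, 154 other genes reached 1 CPM in at least 1 line in adherent cells, with a median of 0.04, and 3 of them had a log2 difference of -2 or less. Those 3, chosen after their values were seen, were Dock3 (0.276 against 1.66 CPM), Gbp9 (0.202 against 1.29 CPM) and Hsd17b11 (0.0344 against 1.1 CPM). For Hsd17b11 a single sgNTC library at 2.9 CPM carried the group, beside 0.205 and 0.184 CPM. Among genes within 2 Mb and under 1 CPM in both lines, Asxl3 near Dsg2 was lowest. It had -6.72 in adherent cells (edgeR adjusted p 0.000563) and -5.53 in ULA cells. Medians differed between loci. Of the 182 tested genes within 2 Mb at any level, 89 lay around Cacna2d2, with a median of 0.07. Medians were -0.66 around Dsg2 (9 genes), -0.28 around Hmcn1 (16) and -0.24 around Ptpn13 (16). They were 0 around Gas1, 0.08 around Dab2ip and 0.13 around Pkia.

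Cacna2d2 lies in a dense cluster, and its nearest neighbour, Tmem115, begins 4.6 kb past its end. Tmem115 stood at 28.9 CPM in Ifngr1-KO and 29.4 CPM in sgNTC adherent cells (log2 difference -0.03 ± 0.07, edgeR adjusted p 0.802). In ULA cells it was higher in Ifngr1-KO, by 0.31 (adjusted p 0.000372). The next genes, Cyb561d2 and Nprl2, had 13.5 against 13.7 CPM and 13.4 against 10.8 CPM. On the other side 6430571L13Rik was low in both lines at 0.0454 against 0.318 CPM. It was called lower in adherent cells (-2.65 ± 1.01, edgeR adjusted p 0.0326) but not in ULA cells (-1.98, 0.0739). Farther on that side, in adherent cells, Hemk1 was higher by 0.74 (0.00577) and Cish lower by 1.26 (0.00407). Neither was called in ULA cells. Beside Ptpn13, Slc10a6 at 7.41 kb was near 0 in both lines (0.108 and 0.0298 CPM), and Aff1, 94.1 kb away, fell by 0.24 on the log2 scale, from 279 to 236 CPM. Wdfy3, 1360 kb away on the other side of Ptpn13, fell by 0.23.

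Around Dab2ip, Ttll11 at 20.2 kb was low in both lines (0.509 and 0.434 CPM), Ggta1 at 95 kb was higher in Ifngr1-KO by 0.82 ± 0.11 (edgeR adjusted p 1.89e-07), and Lhx6 at 351 kb was lower by a log2 difference of -1.57 ± 0.09 (3.57e-16). Pkia's nearest neighbour Zc2hc1a, 58.1 kb off, had 16.7 against 14.4 CPM (0.21 ± 0.1, adjusted p 0.0897). Gm8797, 1620 kb off, had 2.16 against 4.03 CPM. Farther out, at 1950 kb, Zfhx4 had 0 counts in the 12 Ifngr1-KO libraries and 451 in the sgNTC ones, where it averaged 0.811 CPM in adherent cells with PBS. Hmcn1's flanking genes Prg4 (96.4 kb) and Ivns1abp (351 kb) differed by -0.74 ± 0.18 and -0.05 ± 0.05, with adjusted p of 0.000816 and 0.41. Gas1 stands alone, with Tut7 351 kb away at 91.9 against 95.3 CPM and Dapk1 425 kb away near 0 in both lines.

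Dsg2 has other desmosomal cadherin genes beside it. Dsc2, 499 kb away, encodes a desmocollin, the partner of desmogleins. It had 14.5 CPM in Ifngr1-KO against 48.9 CPM in sgNTC adherent cells (log2 difference -1.75 ± 0.09, edgeR adjusted p 7.54e-18) and a difference of -1.77 in ULA cells. So Dsc2 was reduced but not silent. B4galt6, 80.1 kb from Dsg2 on its other side, fell by 0.4 on the log2 scale in adherent cells (adjusted p 0.0152), and Dsc1 was under 0.4 CPM in both lines.

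**Figure D3:**
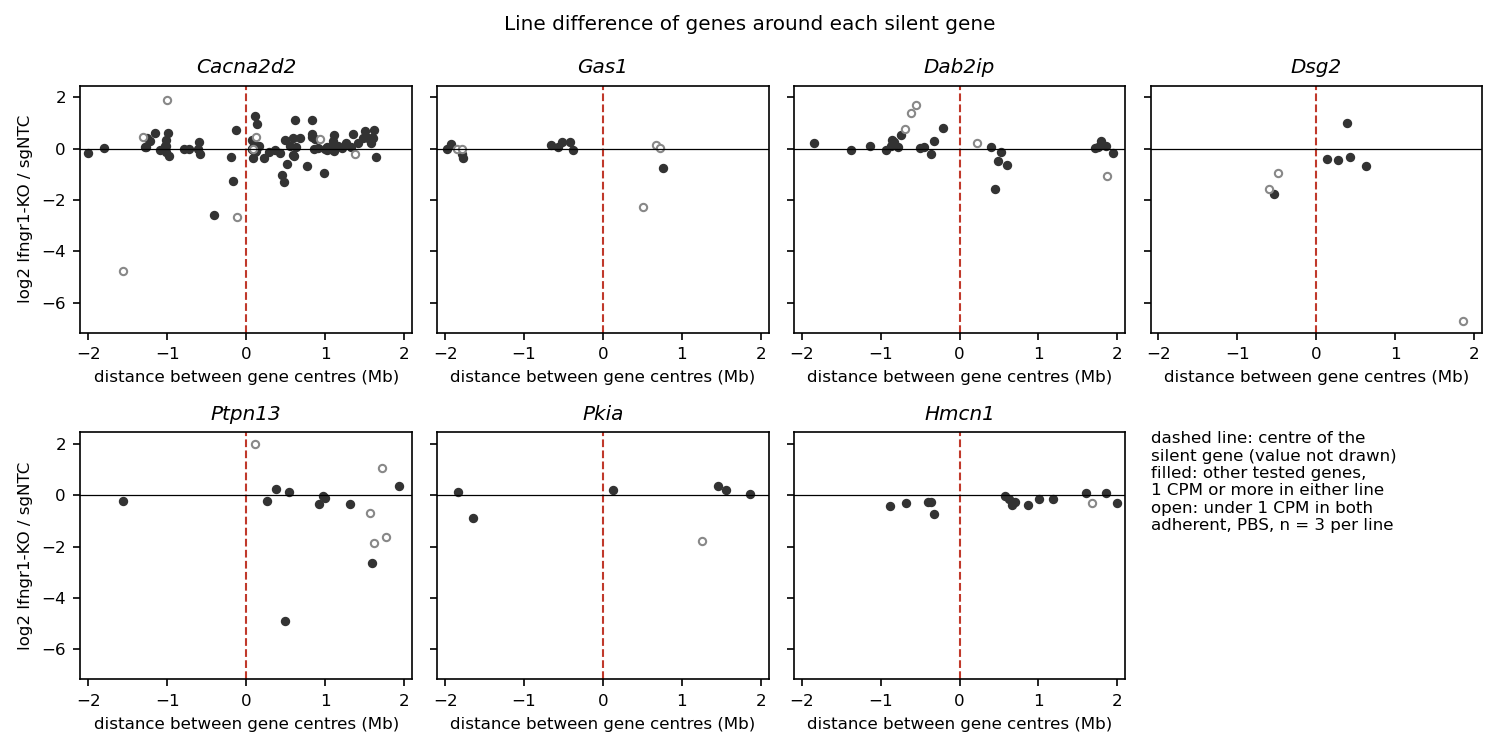
Log2 difference between Ifngr1-KO and sgNTC adherent cells with PBS (vertical axis, edgeR fit, n = 3 per line) of tested protein-coding genes against their distance in Mb from the centre of each silent gene (horizontal axis). Filled points are genes at 1 CPM or more in either line (median 0.04 over all panels). Open points are genes under 1 CPM in both, whose values rest on few counts, though Asxl3 near Dsg2 (-6.72) was called lower. Over filled and open points the median of a panel ran from -0.66 around Dsg2 to 0.13 around Pkia.

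Several silent genes overlap annotated antisense or non-coding genes. Gm48488, a non-coding gene on the strand opposite Gas1, had 1 count in the 12 Ifngr1-KO and 351 in the 12 sgNTC libraries, with means of 0.365 CPM in adherent and 1.04 CPM in ULA sgNTC cells with PBS. Its counts thus followed those of Gas1, and because counting ignored strand the reads of both cannot be told apart. The other 5 overlapping genes gave 0 to 16 counts in all 24 libraries.

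CpG-rich starts are common in mammalian promoters, and sequence is shown here to let the CpG content of genes that were silent together be compared. RefSeq promoter windows on GRCm38.p6, 250 bases before to 50 after a start, matched 5 of the 7 genes, with 8 windows in all. The 250 bases before the start follow for a gene with many CpG (Ptpn13) and for 2 with an intermediate number (Gas1 and Hmcn1), 5′ to 3′ on the gene's own strand, with CG dinucleotides in capitals. The Gas1 window is chr13:60177536-60177785 on the minus strand, the Hmcn1 window chr1:150993436-150993685 on the minus strand and the Ptpn13 window chr5:103424942-103425191 on the plus strand.
Gas1: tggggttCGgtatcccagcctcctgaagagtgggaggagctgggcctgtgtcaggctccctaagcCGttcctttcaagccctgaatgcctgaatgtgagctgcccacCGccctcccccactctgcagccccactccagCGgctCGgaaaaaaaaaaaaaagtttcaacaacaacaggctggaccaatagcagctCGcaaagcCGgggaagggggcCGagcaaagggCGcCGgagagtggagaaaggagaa
Hmcn1: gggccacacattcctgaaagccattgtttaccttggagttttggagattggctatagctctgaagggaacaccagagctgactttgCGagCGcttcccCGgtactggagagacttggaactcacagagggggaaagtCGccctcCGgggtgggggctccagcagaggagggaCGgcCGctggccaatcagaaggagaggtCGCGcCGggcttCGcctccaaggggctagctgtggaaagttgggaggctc
Ptpn13: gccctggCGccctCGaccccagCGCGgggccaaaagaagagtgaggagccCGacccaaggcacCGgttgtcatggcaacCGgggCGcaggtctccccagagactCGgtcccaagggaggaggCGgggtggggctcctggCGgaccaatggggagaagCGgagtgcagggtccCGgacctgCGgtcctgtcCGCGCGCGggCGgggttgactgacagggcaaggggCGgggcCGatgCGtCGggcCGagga

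Cacna2d2 had 43 CpG in its 300 bases, more than 97.4% of all 32851 promoters, and Ptpn13 33, more than 91.4%. Hmcn1 had 19 and Gas1 17, and the 4 starts of Dab2ip had 5, 12, 21 and 29. All promoters had a median of 7 CpG, and the 9657 promoters of genes at 5 CPM or more in every sgNTC group a median of 22. A GC share over 50% with an observed to expected CpG ratio over 0.6 held for 5 of the 8 windows, for 33.3% of all promoters and for 71.8% of those of the expressed genes. The 4 Dab2ip windows belong to 1 gene, so counts of windows here and below are not counts of genes.

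Short motifs were searched on both strands of the 300-base windows. The GC box GGGCGG, which itself holds a CpG, occurred in 6 of the 8 windows, in 35.7% of all promoters and in 66.1% of those of expressed genes. By gene, 4 of the 5 with a window had a GC box. TATAAA occurred in 0 of 8 (13.6% of all promoters and 6.37% of those of expressed genes), the AP-1 motif TGANTCA in 0 of 8 (7.81% and 4.83%) and the TEAD motif GGAATG in 2 of 8, those of Cacna2d2 and Hmcn1 (14.7% and 11.5%). A match is a description of letters in the window.

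**Figure D4:**
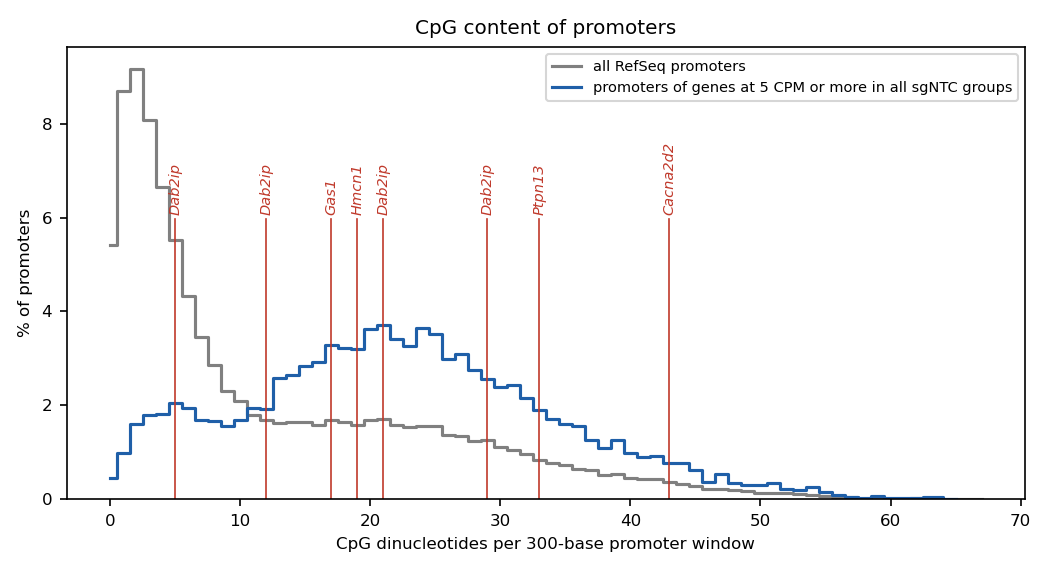
Percent of promoters (vertical axis) by number of CpG dinucleotides in a 300-base window (horizontal axis), for all RefSeq promoters (grey) and for those of genes at 5 CPM or more in every sgNTC group (blue); red lines mark the 8 windows of the silent genes. Cacna2d2 at 43 and Ptpn13 at 33 lie to the right of the blue median of 22, and the 4 Dab2ip starts spread from 5 to 29.

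The relatives of the silent genes were expressed in both lines or low in both. Cacna2d1, a paralog of Cacna2d2, had 148 CPM in Ifngr1-KO and 144 CPM in sgNTC adherent cells (log2 difference 0.04 ± 0.05, edgeR adjusted p 0.535), while Cacna2d3 and Cacna2d4 were near 0 or below 0.6 CPM in both lines. Pkig, a second inhibitor of protein kinase A, was lower in Ifngr1-KO without being silent, at 9.02 against 14 CPM in adherent cells (-0.64 ± 0.1, adjusted p 1.8e-06) and 20.5 against 53.5 CPM in ULA cells, and Pkib was near 0. Pkig also rose in ULA sgNTC cells, by 1.93, where Pkia did not. Rasal2, a Ras GTPase-activating protein like DAB2IP, had 55.4 against 66.7 CPM in adherent cells (-0.27, edgeR adjusted p 0.00177). In ULA cells it had 27.7 against 48.4 CPM (-0.8, adjusted p 1.54e-11). Rasal1, at 0.147 against 0.377 CPM, was low in adherent cells of both lines and stood at 3.79 and 3.88 CPM in ULA cells. Hmcn2 stood at 0.0516 and 0.105 CPM, and the other desmoglein genes Dsg1a, Dsg1b, Dsg1c, Dsg3 and Dsg4 were near 0 in both lines.

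Other genes of the pathways were compared between the lines, where the median log2 difference over all genes tested was -0.01 in adherent and -0.02 in ULA cells. The counts below stand beside 23.9% lower and 20.1% higher among all genes tested in adherent cells, and 25.6% and 24.5% in ULA cells, and nothing particular to a list is read from them. Of 11 other desmosomal genes tested 5 fell and 0 rose (median -0.45), and of 13 adherens and tight junction genes 7 fell and 0 rose (median -0.26), or 6 fell when scaled by library totals. In ULA cells the desmosomal list gave 2 lower and 4 higher (median 0.13), and the junction list 4 lower and 5 higher (median 0.01). Besides Dsc2, plakoglobin (Jup, 108 against 168 CPM) and periplakin (Ppl, 5.98 against 12.1 CPM) fell in adherent cells, by 0.63 and 1.02 on the log2 scale. N-cadherin (Cdh2) fell by 0.95, alpha-catenin (Ctnna1) by 0.59 and the tight junction protein F11r by 0.71. In sgNTC cells 8 of the 11 desmosomal genes and 7 of the 13 junction genes rose in ULA, as Dsg2 did, against 32.5% of all genes. Of 20 fibulin and basement membrane genes, 9 fell and 4 rose in adherent Ifngr1-KO cells (median -0.3) and 6 fell and 9 rose in ULA cells (median 0.46). Fibulin 2 (Fbln2) turned from 172 against 283 CPM in adherent cells to 588 against 396 CPM in ULA cells, Lamc1 rose by 0.68 and Col4a5 fell by 0.5 in adherent cells.

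Signalling lists moved both ways. Of 8 other calcium channel subunit genes tested 1 fell and 2 rose in adherent Ifngr1-KO cells (median -0.14), and 2 fell and 2 rose in ULA cells (median -0.07), with Cacnb3, a beta subunit, at 41.4 against 60.1 CPM in adherent cells. The 14 Hedgehog genes gave 4 lower and 1 higher in each culture (medians -0.14 and -0.12), or 6 lower and 1 higher in ULA cells when scaled by library totals. In adherent cells Disp1, which releases the ligand, fell by 0.65 and the inhibitor Sufu by 0.58, and Kif7 rose by 0.46. Smo fell by 0.23 in adherent and by 0.65 in ULA cells. Gli1 was also called lower in adherent cells, but it averaged under 0.3 CPM in every group. The receptor Ptch1, a Hedgehog target, had 35.2 against 31.7 CPM in adherent cells (0.15 ± 0.1, edgeR adjusted p 0.263). Of 20 Ras GTPase-activating proteins and DAB2IP partners, 8 fell and 4 rose (median -0.08), or 6 and 5 when scaled by library totals, and in ULA cells 5 fell and 9 rose (median 0.16). Dab2, the adaptor after which DAB2IP is named, fell from 158 to 84.3 CPM in adherent cells and from 152 to 45.5 CPM in ULA cells. The kinase ASK1 (Map3k5), a DAB2IP partner, fell by 0.39, and Rasa1 by 0.29, in adherent cells.

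Among 14 other non-receptor tyrosine phosphatases 5 fell and 2 rose in adherent cells (median -0.06), and in ULA cells 1 fell and 5 rose (median 0.16), or 1 and 3 when scaled by library totals. In adherent cells Ptpn2 and Ptpn9 each fell by 0.42 and Ptpn4 by 0.25. Of 11 genes whose proteins are listed as PTPN13 partners, 2 fell and 0 rose in adherent cells (median 0.04), Pdlim4 and Irs1. Pdlim4 had 5.19 against 11.4 CPM. Irs1 was nearly without reads in Ifngr1-KO, at 0.0151 against 2.62 CPM in adherent and 0.034 against 1.37 CPM in ULA cells. Its log2 difference in adherent cells was -7.09 (edgeR adjusted p 5.51e-10), and its sgNTC group means lay under the 5 CPM of the selection. In ULA cells 2 genes of this list fell and 2 rose (median 0.07). The protein kinase A list of 21 gave 8 lower and 4 higher (median -0.18), or 7 and 5 when scaled by library totals, and in ULA cells 9 lower and 3 higher (median -0.06). Its regulatory subunit Prkar2b was higher in Ifngr1-KO, at 20.9 against 5.89 CPM (1.83 ± 0.11, edgeR adjusted p 1.58e-15), and Creb1, a target of the kinase, fell by 0.27.

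Genes that modify DNA and histones were listed as well. Of 14 DNA methylation and demethylation genes 5 fell and 4 rose in adherent Ifngr1-KO cells and 6 fell and 5 rose in ULA cells, with medians of -0.06 and 0. In adherent cells the demethylase Tet3 fell by 0.72 and the methyl-CpG binding proteins Mbd2 and Mbd3 by 0.66 and 0.64. The genes that rose there were Mbd4 (0.52), Hells (0.37), Uhrf1 (0.34) and Dnmt1 (0.22). In ULA cells Uhrf1 (0.63), Dnmt1 (0.58) and Hells (0.58) rose, while Tet3 (-0.46), Mbd2 (-0.34) and Mbd3 (-0.34) fell. Of 30 Polycomb and H3K9 methylation genes 7 fell and 6 rose in adherent cells and 9 fell and 9 rose in ULA cells. The H3K27 demethylases Kdm6a and Kdm6b fell by 0.53 and 0.48 in adherent cells, and Rbbp7 rose by 0.27 there. Scaling by library totals changed the Polycomb counts in adherent cells to 4 lower and 9 higher, so no direction is given for that list.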

How the data were processed

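Poly-A RNA-seq libraries of 24 samples were analysed from the deposited gene counts. Per the submitters' processing notes the authors used Trimmomatic, HISAT2, SAMtools, featureCounts (Subread 2.1.1) and DESeq2 with GRCm38. Per the file headers, featureCounts counted exon reads of pairs without strand, without multi-mapping reads and with each mate counted, so low counts tend to be even (61.3% to 67.2% of counts from 1 to 20). Paralogs with near-identical sequence and overlapping genes are less certain.

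Samples were grouped by genotype, culture and treatment as the labels state. The 7 genes, the gene lists and the tests were chosen with earlier results of these data known. Genes passed filterByExpr with a minimum count of 10, 14622 in all. One model with a mean per group was fitted to all 24 libraries in edgeR 4.0.16 (R 4.3.3, TMM, robust quasi-likelihood, two-sided, Benjamini-Hochberg), and called at an adjusted p under 0.05. The script was tested on simulated data. For each list, the text names up to 3 called genes with the smallest adjusted p in the adherent line comparison and a group mean of 5 CPM or more, paralogs of the silent genes, genes nearest on each side, and the genes of most similar pattern. Ptch1, Smo, Gli1, Irs1, Mbd4, Hells, Uhrf1, Dnmt1 and Asxl3 are named outside that rule, with their values known. Alternatives were DESeq2 1.42.0, other scalings, no filter, fewer libraries, a replicate block and each library left out. The difference of the line effect between cultures was added after the data were seen. Same-numbered replicates deviated from their group means with correlations from -0.06 to 0.05 in 24 pairs of groups, so the numbers were not taken to pair libraries.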

Additional observations from a re-analysis of the deposited data

Results flagged for a closer look

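The line difference with PBS was compared between cultures for 64 tested genes outside the silent set. The contrast was added after the data were seen. Those genes were named above as pathway genes, paralogs, neighbours or genes of like pattern. Smo, Gli1, Irs1, Mbd4, Hells, Uhrf1, Dnmt1, Hemk1, Cish and Asxl3 were not among the 64. In edgeR, 31 of the 64 had a difference at an adjusted p under 0.05, and of all 14622 genes tested 4068 had one (27.8%). Many of them were named for a small adjusted p in the adherent comparison, which this contrast subtracts, so that count cannot be read against the share of all genes. For the silent genes the line difference is fixed by their selection, and it was not compared. The value is the log2 difference between Ifngr1-KO and sgNTC in ULA minus that in adherent cells. It was positive, so higher in Ifngr1-KO relative to sgNTC in ULA than in adherent cells, for Ccdc152 (1.32), Fbln2 (1.29), Ggta1 (0.82), Lhx6 (0.71), Ptpn9 (0.6), Jup (0.56), Disp1 (0.52), Ppl (0.5), Cdh2 (0.47), Sufu (0.39), Rasa1 (0.38), Ptpn2 (0.36), Tmem115 (0.33), Mbd2 (0.31), Col4a5 (0.31), Creb1 (0.3), Mbd3 (0.29), Tet3 (0.26), Ctnna1 (0.24). It was negative for Pla2r1 (-1.02), Dab2 (-0.83), Prg4 (-0.8), Pkig (-0.75), Prkar2b (-0.62), F11r (-0.57), Rasal2 (-0.53), Rab2b (-0.47), Gpr137 (-0.46), Kdm6a (-0.43), Prkar1a (-0.31), Ivns1abp (-0.19). Fibulin 2 changed direction, from -0.72 in adherent to 0.57 in ULA cells, and Ptpn9 from -0.42 to 0.18. Pkig and Dab2 were lower in Ifngr1-KO in both cultures and by more in ULA cells (-1.38 and -1.74) than in adherent cells (-0.64 and -0.91).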

How the results depend on the processing

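Across all alternatives no change of culture or treatment in the 7 genes reversed a call. The number of silent genes called in ULA against adherent cells was 5 to 6 with PBS and 5 to 6 with IFN-gamma over 14 settings each, Cacna2d2 being the one lost when a library was left out, and it was 0 for IFN-gamma in either culture and for the interaction. Scaling by library totals moved the median of all genes from 0.03 to 0.13 (PBS) and from 0.05 to 0.16 (IFN-gamma) in the culture comparison, and the same 6 calls were made. Counts over all genes moved more. For IFN-gamma in adherent cells (46) they were 83 with DESeq2, 175 without the filter, 101 with only the groups compared, and 25 to 40 with a library left out, lowest without adherent PBS replicate 1. In ULA cells (300) they were 482 with DESeq2, 652 without the filter and 127 to 346 with a library left out, lowest without ULA PBS replicate 2. For the interaction (7) they were 63 without the filter, 1 with only the 12 sgNTC libraries, 1 with only the groups compared and 1 to 7 with a library left out, lowest without ULA PBS replicate 3. The cause of these shifts was not tested. The number of autosomal genes within the rule was 15 with an Ifngr1-KO limit of 1 CPM, 17 with an sgNTC limit of 2 CPM and 3 with 10 CPM, and 3 of the 7 genes met the last (Cacna2d2, Gas1 and Dab2ip). It was 8 to 9 with a library left out, and 6 to 7 of the 7 genes remained. With the replicate block 9416 genes were called in the culture comparison with PBS (9446 without it), 6 of the 7 silent genes among them, and the block changed no call for the 7 genes; Gas1 kept 1.44 and Cacna2d2 had an adjusted p of 0.024. Depth limits the residual counts in Ifngr1-KO, which are 36 or fewer a gene.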
